A study of Mus musculus with 6 samples.

Results

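The miRNAs of microglia, leukocytes and reactive glia were followed in small RNA from the cortex of untreated adult male mice. They were taken by name and are 9 of the 1182 features counted: mmu-miR-223-3p, mmu-miR-142a-3p, mmu-miR-142a-5p, mmu-miR-150-5p, mmu-miR-155-5p, mmu-miR-146a-5p, mmu-miR-146b-5p, mmu-miR-21a-5p and mmu-miR-21a-3p. In 3 libraries the genotype is Fmr1 knockout (KO), without the gene of the RNA-binding protein FMRP, and in 3 it is wild type (WT), from mice described as siblings. The sources used here do not give the strain, the Fmr1 allele or the exact age. Small RNA cannot show the loss of the Fmr1 transcript, so the genotype labels have no check in these data.

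Whole cortex holds few immune cells beside its neurons, astrocytes and oligodendrocytes. Microglia are the resident macrophages, and leukocytes and platelets come with any blood left in the vessels. Among the miRNAs of these cells, miR-223 belongs to neutrophils, monocytes and platelets, miR-142 to all blood lineages including microglia, and miR-150 to mature lymphocytes. The transcription factor NF-kB induces miR-155 and miR-146a in inflammatory signalling. By repressing the adaptors Traf6 and Irak1, miR-146a then damps that signal, whereas miR-155 sustains inflammatory responses. Reactive astrocytes raise miR-21, which is transcribed in response to STAT3. In bulk tissue, fewer cells of a type and less RNA per cell cannot be told apart.

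The mature sequences of 8 of the 9 were matched by name in RefSeq (GRCm38.p6). They are shown because similar sequences and antisense overlap bear on which of these counts are separate measurements. Each is written 5′ to 3′ with its seed, bases 2 to 8, in capitals.
miR-223-3p: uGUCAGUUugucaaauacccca
miR-142a-5p: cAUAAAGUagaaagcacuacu
miR-142a-3p: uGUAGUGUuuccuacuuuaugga
miR-142b: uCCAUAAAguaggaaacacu
miR-155-5p: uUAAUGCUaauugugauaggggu
miR-146a-5p: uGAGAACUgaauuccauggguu
miR-146b-5p: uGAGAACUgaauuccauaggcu
miR-21a-5p: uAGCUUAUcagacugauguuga
miR-21a-3p: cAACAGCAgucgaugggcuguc

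A single seed was shared within the set. GAGAACU belongs to both miR-146a-5p and miR-146b-5p, which differ at 2 of 22 bases, G18A and U21C, counted from the 5′ end with the miR-146a base first. No mature miRNA of the sequence table other than these has that seed. For miR-223-3p, miR-142a-3p, miR-142a-5p, miR-155-5p and miR-21a-3p no other entry shared the seed, and that of miR-21a-5p is shared by miR-21c, which was not analysed here. The entry miR-142b lies on the opposite strand of the miR-142a hairpin. Its reverse complement, aguguuuccuacuuuaugga, is identical to bases 4 to 23 of miR-142a-3p. The counts of miR-142b and miR-142a-3p were equal in 6 of 6 libraries, so these reads cannot be assigned to a strand and are treated as a single measurement.

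On GRCm38 the miRNAs come from 7 hairpins. That of miR-223 lies on chrX:96242817-96242926, plus strand, within an exon of the noncoding gene F630028O10Rik. The miR-142a hairpin is intronic to the noncoding Mir142hg, at chr11:87756864-87756927 on the plus strand. The other hairpins of chromosome 11, both on the minus strand, are miR-146a at chr11:43374397-43374461, outside other annotated genes, and miR-21a at chr11:86584067-86584158, in an exon of Vmp1, an autophagy gene. An exon of the noncoding Mir155hg holds miR-155 (chr16:84714140-84714204, plus). An intron of the protein-coding Mfsd13a holds miR-146b (chr19:46342762-46342870, plus). The miR-150 hairpin, at chr7:45121757-45121821 on the plus strand in the GENCODE annotation, overlaps no other gene.

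Between 11182888 and 15733876 miRNA reads were counted per library. Levels are given as CPM, the count divided by the library size and multiplied by 1e6, on library sizes scaled by TMM, a method that corrects for a few abundant miRNAs taking up reads. Of the neuron-enriched miRNAs, miR-128-3p ranked 3 in every library, miR-124-3p 40 to 50 and miR-138-5p 94 to 123. As miR-143-3p, of the mural cells of vessels, ranked 4 to 5, these ranks alone do not identify the tissue, which is taken from the labels. KO replicate 3 stood apart from the other libraries. Of 541 tested miRNAs it was the highest or the lowest of the 6 libraries for 67.8%, against 43.3% and 31.1% for KO replicates 1 and 2 and 15.2% to 21.8% for the WT libraries. Scaled by library totals alone the gap was smaller, 57.1% against 44.0% and 44.9% for KO replicates 1 and 2. The TMM factor was lowest in KO replicate 2 (0.8265, others 0.9664 to 1.092). For some miRNAs the place of KO replicate 2 among the libraries changes with the scaling. Because KO replicate 3 stood apart, fold changes, ratios and summed levels of the members are also given without KO replicate 3. Other values are given by library. The labels call the replicates biological but do not tie each library to an animal. The p-values thus set each difference against the spread between these libraries, which may not be that between animals.

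The 9 miRNAs differed widely in level. At 8899 ± 423 CPM in WT and 8569 ± 745 CPM in KO (SD, n = 3 each), miR-21a-5p was the most abundant and ranked between 17 and 21 of all features. It was followed by miR-146b-5p, which ranked between 42 and 50. The next pair, miR-146a-5p and miR-150-5p, overlapped in level (ranks 129 to 175 and 125 to 169). Below them were miR-142a-5p, at ranks 262 to 324, and miR-142a-3p, at ranks 384 to 488. The ranges of miR-155-5p and miR-223-3p overlapped again (ranks 464 to 577 and 469 to 624). Last was miR-21a-3p, with 4 reads over all 6 libraries. The order compares read counts of RNAs of 21 to 23 bases, with no length term, and ligation to adaptors can favour some sequences over others.

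**Figure D1:**
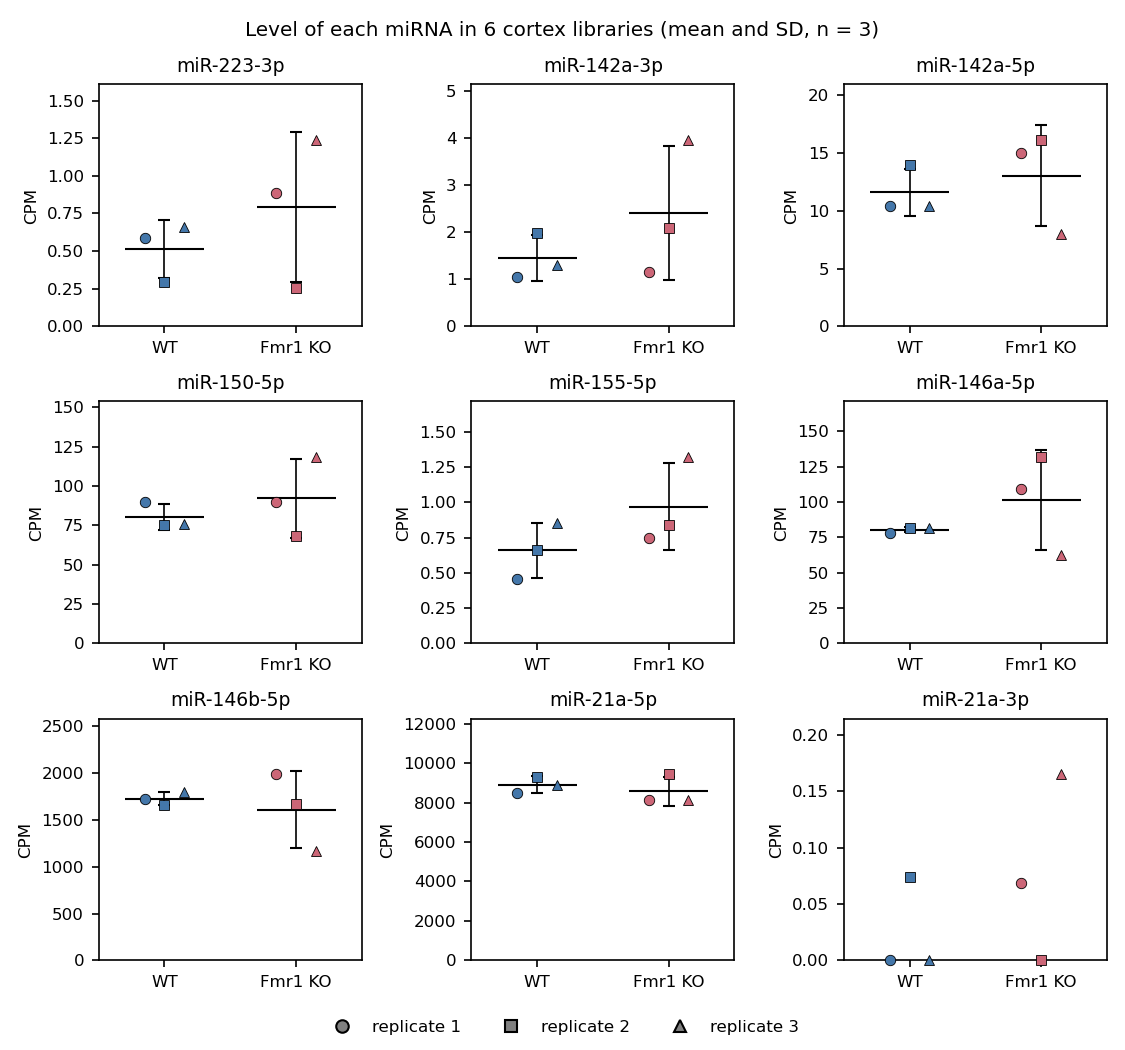
Level of each of the 9 miRNAs in CPM (y axis, from 0, own scale per panel) in the WT and Fmr1 KO libraries, with points for replicates and a line and bar for the mean and SD (n = 3), left out for miR-21a-3p with its 4 reads. KO replicate 3, the triangle, is the highest library for 5 miRNAs and the lowest for the other 4, and the genotypes overlap in every panel.

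With all libraries, no difference between KO and WT passed the test for the 7 miRNAs with enough reads (0 of 7 at an adjusted p under 0.05, edgeR quasi-likelihood test, against 0 of 541, or 0%, of all tested). Without KO replicate 3 it was 1 of 7, miR-146a-5p, against 18 of 560 (3.21%). With all libraries, at an unadjusted p under 0.05 there were likewise 0 of the 7, against 35 of 541 (6.47%) overall. KO and WT libraries overlapped for all 9 miRNAs, the 7 tested among them. Of all tested, 85 of 541 (15.7%) did not overlap, and with so few members 0 of 7 is not far from that share. KO values were higher for 5 of the 7 and lower for 2, and 52.5% of all tested were higher. The leukocyte members had a median log2 fold change of 0.37 over the 4 tested and the reactive members -0.05 over the 3 tested, beside 0.03 over all tested. Without KO replicate 3 they were 0.23 for the leukocyte members, 0.10 for the reactive members, the latter with the opposite sign, and 0.02 over all tested. The 2 members below the count filter were miR-223-3p and miR-21a-3p.

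**Figure D2:**
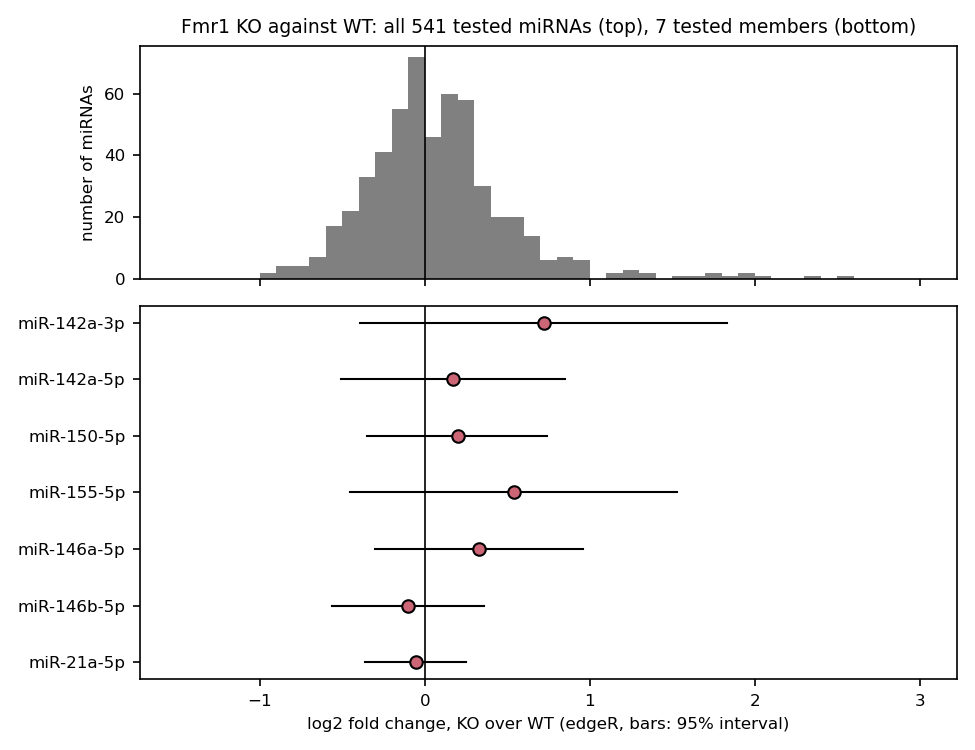
Log2 fold changes of KO over WT from edgeR (x axis), as a histogram of all 541 tested miRNAs above and as points with 95% intervals for the 7 tested members below. Every interval includes 0, and the widths run from that of miR-21a-5p (-0.36 to 0.25) to that of miR-142a-3p (-0.39 to 1.83).

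Myeloid miR-223-3p was near the limit of detection. It had 13, 3 and 15 reads in KO replicates 1 to 3 and 9, 4 and 10 reads in WT replicates 1 to 3. In CPM these were 0.887, 0.252 and 1.24 in KO, against 0.59, 0.295 and 0.658 in WT. The highest and the lowest library were thus both KO. The difference of 0.278 CPM between means did not exceed the spread (exact two-sided permutation p = 0.5, n = 3 each, where 0.1 is the smallest p possible), and without KO replicate 3 it was 0.0558 CPM. At this depth the 3 reads of KO replicate 2 are 0.209 CPM of the raw total, with a 95% exact Clopper-Pearson interval of 0.043 to 0.61 (counting error only) that includes the 0.302 of WT replicate 2. In neutrophils the 3p arm is the one known to act. Its partner miR-223-5p had 49 reads in all against 54, a ratio of 1.1 (95% counting interval 0.735 to 1.66).

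The pan-leukocyte miR-142a was seen mainly as its 5p arm. KO libraries held 14.9, 16.1 and 8 CPM of miR-142a-5p and WT libraries 10.4, 13.9 and 10.4 CPM. KO replicates 1 and 2 were above every WT library and KO replicate 3 below every one. The place of KO replicate 2 rests on the TMM scaling. It had 191 reads of 14385332 and WT replicate 2 had 189 of 13225790, so by library totals it was below WT replicate 2. The log2 fold change was 0.17 (SE 0.30, 95% interval -0.51 to 0.85, edgeR adjusted p = 0.882). It was 0.439 (SE 0.194) without KO replicate 3 and -0.0699 without KO replicate 2. Levels of miR-142a-3p, read together with antisense miR-142b, were 1.16, 2.1 and 3.96 CPM in KO, against 1.05, 1.99 and 1.31 CPM in WT. Here KO replicate 3 was the highest library, with 48 reads, KO replicate 1 lay within the WT range and KO replicate 2 just above it. The log2 fold change was 0.72 (SE 0.49, interval -0.39 to 1.83, edgeR adjusted p = 0.769), and 0.176 without KO replicate 3.

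Both arms are cut from the same hairpin, so their ratio within a library needs no scaling. Reads of the 5p arm were 12.9, 7.64 and 2.02 times those of the 3p arm in KO and 9.94, 7 and 7.9 times in WT. KO replicate 1 had the highest and KO replicate 3 the lowest ratio, with all WT libraries between KO replicates 1 and 3. The mean log2 ratio was 3.03 ± 0.26 in WT and 2.55 ± 1.38 in KO (SD, n = 3 each, difference -0.49, exact permutation p = 0.8, adjusted p = 0.8 over 3 ratios). Without KO replicate 3 the difference changed sign, to 0.276. Over 144 hairpins with both arms tested, the log2 ratio of KO replicate 3 lay more than 1 from the WT mean for 30.6%, against 6.9% and 6.2% in KO replicates 1 and 2. For this count 0.5 reads were added to each arm. For miR-142a it lay -2.00 from the WT mean, and the 3 hairpins that lay lower were let-7g (-4.06), miR-212 (-2.31) and miR-25 (-2.23), named after their values were seen.

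**Figure D3:**
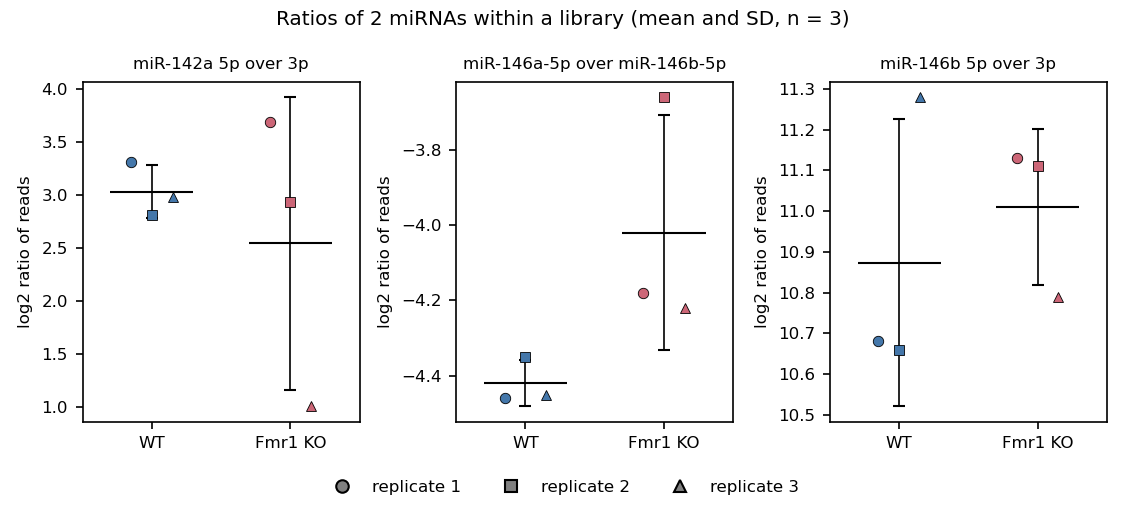
Log2 ratio of the reads of 2 miRNAs within each library (y axis, own scale per panel) in WT and KO, with points for replicates and lines and bars for the mean and SD (n = 3). The 5p over 3p ratio of miR-142a spreads from 1.01 to 3.69 in KO against 2.81 to 3.31 in WT, and the miR-146a-5p over miR-146b-5p ratio is higher in all 3 KO libraries than in any WT library.

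Known from mature lymphocytes, miR-150-5p had 89.9, 68.2 and 118 CPM in KO, against 90.1, 75.3 and 75.7 CPM in WT. The lowest and the highest library were both KO, and the groups overlapped. Its log2 fold change was 0.20 (SE 0.24, interval -0.35 to 0.74, edgeR adjusted p = 0.853), and -0.00956 without KO replicate 3. The partner arm miR-150-3p had 44 reads in all, against 7111 for the 5p arm. Over all libraries miR-150-5p had a mean of 86.2 CPM, against 12.3 for pan-leukocyte miR-142a-5p and 1.93 for miR-142a-3p. Which cells the reads of miR-150-5p come from was not tested.

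Inducible miR-155-5p was rare, with 11, 10 and 16 reads in KO and 7, 9 and 13 in WT. In CPM these were 0.751, 0.841 and 1.32 in KO, against 0.459, 0.663 and 0.855 in WT. KO replicates 1 and 2 lay between WT replicates 2 and 3, and KO replicate 3 was the highest. The log2 fold change was 0.54 (SE 0.43, interval -0.45 to 1.53, edgeR adjusted p = 0.791) and 0.28 without KO replicate 3. It had at most 16 reads in a library, and changes within this interval are not excluded.

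Summed over miR-223-3p, both miR-142a arms, miR-150-5p and miR-155-5p, the leukocyte members reached 108, 87.5 and 133 CPM in KO, against 103, 92.2 and 88.9 CPM in WT. Most of this sum is miR-150-5p. KO replicate 2 was the lowest library and KO replicate 3 the highest, and the difference between means, 14.7 CPM, was 3.03 CPM without KO replicate 3 and 25.6 CPM without KO replicate 2. Blood markers moved partly alongside. Erythroid miR-451a, the abundant miRNA of red cells, had 43.3, 36.2 and 80.1 CPM in KO, against 28.8, 39.7 and 30.3 CPM in WT, so that KO replicate 3 was again the highest. The whole erythroid list of 5 summed to 123 to 159 CPM in KO and 121 to 126 CPM in WT, none of its members was at 0, and 4 of 5 had higher KO values with 0 called. The median log2 fold change of the list was 0.05, with 0.69 for miR-451a. In it miR-486a-5p and miR-486a-3p had nearly the same counts and are not separate evidence. Both were lowest in KO replicate 3 (38.4 and 38.5 CPM), the library where miR-451a was highest. The part of blood in the leukocyte values was not tested.

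The NF-kB feedback miRNA miR-146a-5p was the one member called under any of the alternatives. It had 110, 132 and 62.6 CPM in KO, against 78.3, 81.5 and 81.8 CPM in WT. KO replicates 1 and 2 were above the narrow WT range, whose SD was 1.93 CPM, and KO replicate 3 was below it. With all libraries the log2 fold change was 0.33 (SE 0.27, interval -0.30 to 0.96, edgeR adjusted p = 0.791). Without KO replicate 3 it was 0.601 (SE 0.138) and passed the threshold (edgeR adjusted p = 0.0383), 1 of the 18 calls among 560 tested. That call rests on 2 KO libraries and on the removal of a library chosen because it stood apart. Over the 12 alternatives the adjusted p ranged from 0.0383 to 0.999, and without KO replicate 2 the log2 fold change was 0.0398.

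Its seed partner miR-146b-5p, more abundant in cortex, was called under none of the 12 alternatives. KO libraries held 1986, 1669 and 1169 CPM and WT libraries 1726, 1662 and 1793 CPM. KO replicate 1 was the highest of all, KO replicate 2 within the WT range and KO replicate 3 the lowest. Scaled by library totals alone, KO replicate 2 was below the WT range. The log2 fold change was -0.10 (SE 0.20, interval -0.56 to 0.36, edgeR adjusted p = 0.882) and 0.0962 without KO replicate 3. Reads of miR-146a-3p and miR-146b-3p numbered 1 and 71 in all, against 7478 and 139285 for the 5p arms. The log2 ratio of the miR-146b arms was 10.87 ± 0.35 in WT and 11.01 ± 0.19 in KO (SD, n = 3 each, exact permutation p = 0.8). The difference was 0.14, and 0.246 without KO replicate 3.

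Within each library, miR-146a-5p stood at a larger share of miR-146b-5p in KO. The ratio was 0.0552, 0.0789 and 0.0536 in KO, against 0.0454, 0.049 and 0.0456 in WT. All 3 KO libraries, replicate 3 included, were above all 3 WT libraries. On the log2 scale the mean was -4.42 ± 0.06 in WT and -4.02 ± 0.31 in KO, a difference of 0.40 (SD, n = 3 each). The exact two-sided permutation p was 0.1, the smallest that 3 against 3 libraries allow, and 0.3 when adjusted over the 3 ratios, so the difference did not pass. It was 0.221 without KO replicate 2 and 0.5 without KO replicate 3. Since the 2 sequences differ at 2 bases near the 3′ end and the mismatches allowed in counting are not given, reads may be shared between them. Over all libraries miR-146a-5p had 0.0537 times the reads of miR-146b-5p, and the part of shared reads in the ratio was not tested.

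The reactive glia miRNA miR-21a-5p had the smallest KO spread of the tested members (SD of log2 CPM 0.123). KO libraries held 8150, 9429 and 8128 CPM and WT libraries 8468, 9314 and 8913 CPM. KO replicates 1 and 3 lay just below the WT range and KO replicate 2 just above it. Scaled by library totals alone, KO replicate 2 was instead the lowest library. The log2 fold change was -0.05 (SE 0.13, interval -0.36 to 0.25, edgeR adjusted p = 0.894), which limits the KO level to 0.78 to 1.19 times that of WT. Its sign changed with totals that leave out the 5 most abundant miRNAs (0.0249), without KO replicate 3 (0.000281) and without WT replicate 2 (0.00556). The passenger miR-21a-3p had 1, 0 and 2 reads in KO and 0, 1 and 0 in WT. Where it had 0 reads, the 95% exact Clopper-Pearson interval (counting error only) still allowed a level above 0. Its upper limit was 0.2564 CPM of the raw total in KO replicate 2, 0.2488 in WT replicate 1 and 0.2345 in WT replicate 3. Over all libraries the arms stood at 721341 to 4 reads, a ratio of 180335 (95% counting interval 70432 to 661864). No fold change is given for this arm.

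Together the reactive members reached 10246, 11230 and 9359 CPM in KO, against 10272, 11058 and 10788 CPM in WT, of which miR-21a-5p is the larger part. KO replicate 2 was just above the WT libraries and KO replicates 1 and 3 below them. The difference between means of -428 CPM was within the KO spread (SD 936 CPM) and was 31.6 CPM without KO replicate 3, -903 CPM without KO replicate 2 and -252 CPM without WT replicate 2.

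The KO libraries spread more than the WT libraries for all 7 tested members, as they did for 452 of all 541 (83.5%). The median SD of log2 CPM over the 7 was 0.396 in KO and 0.147 in WT, beside 0.396 and 0.140 over all 541. KO replicate 3 was the library farthest from the WT mean for 6 of the 7, and for 52.7% of all tested. The exception was miR-146a-5p, for which it was KO replicate 2. Relative to the WT mean, KO replicate 3 was at 1.40 for miR-142a-3p, 0.90 for miR-155-5p and 0.56 for miR-150-5p on the log2 scale. It was at -0.56 for miR-146b-5p, -0.51 for miR-142a-5p and -0.36 for miR-146a-5p. In this library the arms of miR-142a thus lay on opposite sides of the WT mean. Among the 9 it was the highest library for 5 and the lowest for 4, and scaled by library totals alone for 5 and 3, since miR-21a-5p was then lowest in KO replicate 2.

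**Figure D4:**
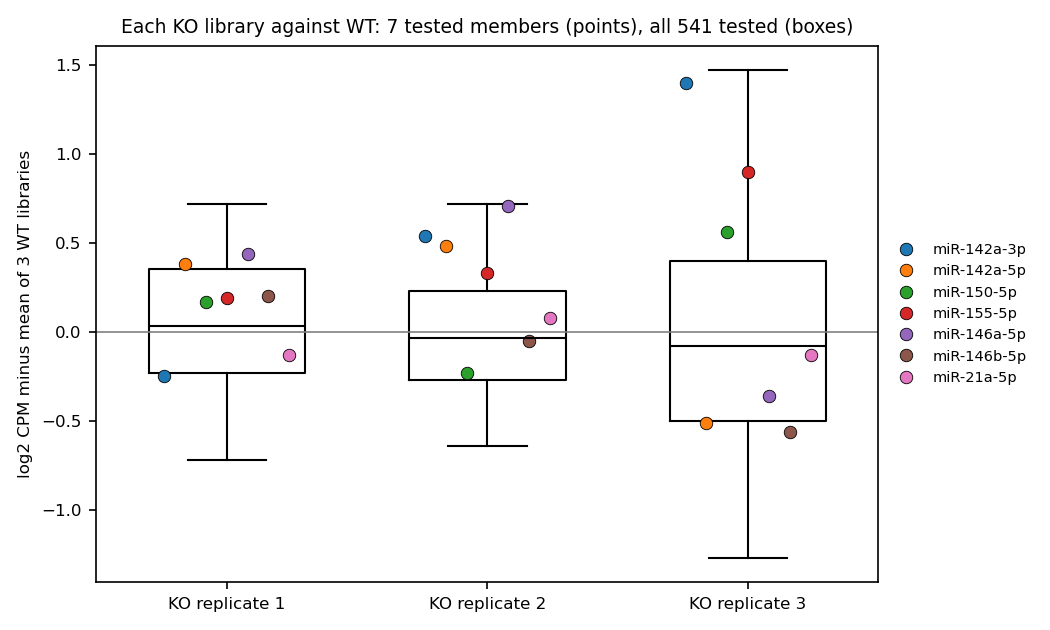
Difference between log2 CPM in each KO library and the mean of the 3 WT libraries (y axis) for the 7 tested members (points) and for all 541 tested miRNAs (boxes: quartiles and median, whiskers: 5th to 95th percentile). Points of KO replicate 3 reach from -0.56 to 1.40, and the box of that library is the widest.

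Which other miRNAs followed the same order of libraries was described by Pearson's r of log2 CPM over the 6 libraries, with no test, since the nearest of 541 are picked and all share the same libraries. The profile of miR-146b-5p was most like that of miR-99b-5p (r = 0.995), miR-12194-3p (0.994) and miR-666-5p (0.988). For miR-146a-5p they were miR-379-3p (0.982), miR-331-5p (0.980) and miR-148a-3p (0.975). The first of these was also among the 3 nearest to miR-142a-5p (0.943), after miR-194-5p (0.959) and miR-145a-3p (0.954). In contrast, miR-142a-3p was nearest to miR-551b-3p (0.971), miR-26a-2-3p (0.942) and miR-101a-3p (0.941). The closest to miR-150-5p were miR-149-5p (0.958), miR-129-2-3p (0.957) and miR-574-3p (0.956), all of them highest in KO replicate 3. For miR-155-5p these were miR-671-5p (0.976), miR-496a-3p (0.900) and miR-204-3p (0.892), and for miR-21a-5p miR-369-3p (0.926), miR-344c-3p (0.891) and miR-26b-5p (0.889). Among the members themselves, r was 0.90 between miR-142a-5p and miR-146a-5p, 0.80 between miR-142a-3p and miR-155-5p, and -0.36 between the arms of miR-142a. It was -0.90 between miR-142a-3p and miR-146b-5p, -0.88 between miR-150-5p and miR-21a-5p, and -0.74 between miR-142a-5p and miR-150-5p.

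Other miRNAs of leukocytes and of inflammatory signalling gave no called difference either, with all libraries or without KO replicate 3. Of 9 further leukocyte and macrophage miRNAs, 5 were tested, 4 with higher and 1 with lower values in KO (median log2 fold change 0.31, 0.19 without KO replicate 3, 0 called). Of these, miR-22-3p, abundant in myeloid cells and neurons, had 2127 ± 212 CPM in WT and 1948 ± 516 CPM in KO (SD, n = 3 each). Levels of miR-342-3p, from an intron of Evl and known from B cells and myeloid cells, were 100, 78.6 and 263 CPM in KO, against 91.9, 83.3 and 99.2 CPM in WT, with KO replicate 1 just above the WT range and KO replicate 3 far above it. Macrophage miR-511-3p and miR-511-5p had 5 and 2 reads in all. Of 9 others tied to NF-kB or inflammatory signalling, 8 were tested and split 4 and 4 (median -0.03, -0.14 without KO replicate 3, 0 called). The most abundant were miR-9-5p (log2 fold change 0.17, SE 0.20) and miR-125b-5p, at 6052 ± 236 CPM in WT and 5287 ± 168 CPM in KO (SD, n = 3 each). For miR-125b-5p all KO libraries lay below all WT libraries (log2 fold change -0.20, SE 0.13, edgeR adjusted p = 0.769), as they did for miR-203-3p and miR-221-3p, 3 of 8 beside the 15.7% of all tested. The last 2 were named after their values were seen. Of the partner arms and near relatives, 2 of 8 were tested, miR-142b and miR-146b-3p, with 0 called.

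Markers of other cell types in the cortex were compared as summed levels. Endothelial miR-126a arms summed to 7656 to 8063 CPM in KO and 7050 to 7626 CPM in WT, nearly all of it miR-126a-3p. Mural miRNAs, chiefly miR-143-3p, reached 30428 to 36912 CPM in KO and 28185 to 34950 CPM in WT. Oligodendrocyte miRNAs, chiefly miR-219a-2-3p, had 558 to 792 CPM in KO and 769 to 880 CPM in WT. In that list 2 of 3 had lower KO values and 1, miR-338-3p, higher (log2 fold change 0.23, SE 0.30), named after its values were seen. The neuronal list, chiefly miR-128-3p, had 92889 to 107232 CPM in KO libraries and 101666 to 113735 CPM in WT libraries. The choroid plexus list, chiefly miR-204-5p, stood at 1636 CPM in KO replicate 3. It was at 676 to 776 CPM in the other 2 KO libraries and 675 to 755 CPM in WT. KO replicate 3 was also the highest library for miR-142a-3p, miR-150-5p, miR-155-5p and miR-451a. It was the lowest for miR-142a-5p, miR-146a-5p, miR-146b-5p and the miR-486a arms. Of the 9 members it was the highest for 5 and the lowest for 4, beside 159 and 208 of all 541 tested. Epithelial or olfactory miR-200 members, led by miR-200a-3p, were at 15.7, 904 and 970 CPM in KO replicates 1 to 3, with 83.9 to 290 CPM in WT, and in this list miR-141-3p was at 0 reads in KO replicate 1. Over these lists 0 members were called, with all libraries or without KO replicate 3, and the part of any of these tissues in the values of the 9 miRNAs was not tested.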

How the data were processed

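The authors deposited whole-number read counts per mature miRNA for 6 libraries and, per the file headers, TPM values, which equal each count's share of the library total (largest deviation 4.9e-10) and were not tested separately. The submitters' processing notes name Bowtie, DESeq2 and the build mm10. The sources used here do not give trimming, the miRBase release, mismatches or the use of strand. Counts were tested in R 4.3.3 with edgeR 4.0.16: filterByExpr (minimum count 10, 541 features left), TMM scaling, robust quasi-likelihood test of KO against WT, and Benjamini-Hochberg adjustment over all 541 at 0.05. Log2 CPM used a prior count of 2. Ratios of 2 miRNAs were taken on raw counts and tested by exact permutation. DESeq2 1.42.0 and limma-voom (limma 3.58.1) were alternatives. The procedure was tested on simulated data. Replicate numbers follow accession order. Hairpins were placed with RefSeq and GENCODE M21 on GRCm38. The 9 members and the lists were chosen with earlier results of these data known. Named were all members, their detected partners, the 2 most abundant of each related list, 1 to 3 of each marker list, and for each tested member the 3 miRNAs with the most similar profile. Reads are not unique molecules, so counting intervals cover counting error only.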

Additional observations from a re-analysis of the deposited data

How the results depend on the processing

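With all 6 libraries, 0 miRNAs were called under each of the other scalings, without the count filter, with DESeq2 and with limma-voom. Leaving out a library gave 0 to 18 calls. The 35 at an unadjusted p under 0.05 became 18 with library totals and 56 of 1182 without the count filter, and 14 to 97 with a library left out. Over left-out libraries the log2 fold change ranged from -0.0699 to 0.439 for miR-142a-5p, from -0.00956 to 0.341 for miR-150-5p, from -0.272 to 0.0962 for miR-146b-5p and from -0.17 to 0.00556 for miR-21a-5p, so each changed sign. The last was also above 0 (0.0249) when scaled without the 5 most abundant miRNAs. For miR-142a-3p (0.176 to 1.08), miR-155-5p (0.28 to 0.791) and miR-146a-5p (0.0398 to 0.601) the direction held. The miR-142a arm ratio ranged from -1.06 to 0.276 and that of miR-146a-5p to miR-146b-5p from 0.221 to 0.5. The cause of these changes was not tested. No paired analysis was possible because the labels give the libraries no shared replicate numbers. Depth limits miR-223-3p, miR-155-5p and miR-21a-3p most, with at most 16 reads in a library.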
